A study of Mus musculus with 17 samples.

Results

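The genes described here are the nuclear genes of the mitochondrial respiratory chain and the ATP synthase. They were chosen by name alone, as every gene of the count table whose symbol starts with Ndufa, Ndufb, Ndufc, Ndufs, Ndufv, Uqcr, Cox4, Cox5, Cox6, Cox7, Cox8 or Atp5. The rule found 89 of 26131 genes, which together held 2958511 of the 1099241149 unique molecular identifiers (UMIs, each standing for 1 captured RNA molecule), or 0.269%. By role they were 7 core subunits of complex I, 29 accessory subunits of complex I, 8 assembly factors of complex I (the Ndufaf genes), 8 subunits of complex III, 19 of complex IV, 17 of the ATP synthase, and Ndufb1-ps, which is annotated as noncoding. Complex II and the genes carried by the mitochondrial genome lie outside the rule and are given below as separate lists.

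The respiratory chain sits in the inner mitochondrial membrane. Complexes I, III and IV pass electrons to oxygen and pump protons, and the ATP synthase uses the proton gradient to make ATP, on which neurons draw heavily to restore ion gradients after firing. Some subunits of these complexes are encoded by mitochondrial DNA, while the other subunits and all assembly factors are made in the cytosol from nuclear transcripts and imported. Several complex IV subunits exist as paralogues that are known for use in particular tissues.

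RNA was counted in single nuclei of the posterior brain of 17 female mice, aged 2.3 months per the labels, all homozygous for a knock-in of the human transferrin receptor (TfR), so that the control animals carried it too. Every animal received 4 intravenous doses over 24 days and was harvested 72 hours after the last. The groups were saline (4 mice), Malat1 ASO, an antisense oligonucleotide (ASO) against the nuclear RNA Malat1 given alone at 2 mg/kg (4 mice), anti-TfR:Malat1 at 50 mg/kg (6 mice) and OTV:Malat1 at 50 mg/kg (3 mice). The series sets the last 2, both carriers of the ASO, side by side. Each library came from 1 mouse, so that p-values for treatments and batches measure the spread between mice. Labels were compared within the same mice, and those p-values measure the spread left after mouse and label are fitted.

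The libraries held 13841 to 18365 nuclei and 55393600 to 79866400 UMIs each (284074 nuclei in all), with 3342 to 4619 UMIs per nucleus on average; the 3 OTV:Malat1 libraries had the lowest averages, 3490, 3462 and 3342. Malat1 made up 4.65% to 8.09% of UMIs in saline mice, 4.60% to 7.60% under Malat1 ASO, 4.64% to 7.22% under anti-TfR:Malat1 and 3.34% to 4.35% under OTV:Malat1, so that only the last range did not overlap saline. Of 273792 barcode sequences, 10044 (3.67%) occurred in 2 or more libraries. Cell types were taken from the deposited labels, which were predicted from expression and matched their markers for neurons, oligodendrocytes, astrocytes, microglia, perivascular macrophages and vascular cells. There were 2 exceptions. Cluster 13 of the deposited clusters (7782 nuclei, 7336 of them labelled neurons) carried oligodendrocyte precursor markers (Pdgfra, Vcan and Cspg4), summing to 2213 counts per 1000000 UMIs (CPM) against 20.8 in the other neurons, and was kept apart under its number. The label Glia was scarce and carried choroid plexus markers (2746 CPM summed), so its values are read as those of the label only.

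Respiratory chain transcripts took a larger share of the counted RNA in oligodendrocytes, astrocytes, microglia, vascular cells, perivascular macrophages and cluster 13 than in neurons. Summed over the 89 genes, neurons had a lowest level of 1891, a median of 2464 and a highest of 3523 CPM over the 17 mice. The same 3 values were 2947, 4169 and 7231 CPM in oligodendrocytes and 3523, 4230 and 6662 CPM in astrocytes. They were 3749, 5186 and 8456 CPM in microglia, and 4501, 5787 and 9656 CPM in vascular cells. Microglia and vascular cells did not overlap neurons, astrocytes cleared them only narrowly, oligodendrocytes overlapped them, and in all 4 labels every mouse had a higher level than in its own neurons (17 of 17). Relative to neurons of the same mouse, the summed level was 1.73 ± 0.18 times as high in oligodendrocytes (mean ± SD, n = 17), 1.81 ± 0.12 times in astrocytes, 2.18 ± 0.22 times in microglia, 2.55 ± 0.34 times in vascular cells, 2.17 ± 0.34 times in perivascular macrophages and 1.31 ± 0.10 times in cluster 13.

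Depth was lower and the transcripts of ribosomal proteins were higher outside neurons as well, though not in the same order of labels. Neurons had 5185 UMIs per nucleus on average and astrocytes 1898, oligodendrocytes 1415, vascular cells 1304, perivascular macrophages 1141 and microglia 1071, with 2171 in cluster 13. The summed level of cytosolic ribosomal protein genes was higher outside neurons too, 2.17 times in oligodendrocytes, 1.78 times in astrocytes, 2.93 times in microglia and 3.72 times in vascular cells. Across 19 deposited clusters the summed level of the respiratory chain genes ran against UMIs per nucleus (Spearman's rho −0.93, clusters sharing the same 17 libraries) and with the ribosomal sum (rho 0.94). Within neurons the same held, from 2029 CPM in cluster 5 with 6905 UMIs per nucleus to 4443 CPM in cluster 16 with 1343. The part of depth, and of RNA from other cells, in the difference between labels was not tested; neuron markers summed to 849 CPM in oligodendrocytes and 1095 CPM in microglia, against 12718 CPM in neurons.

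Gene by gene, a fit of summed counts with the mouse as a block (edgeR's quasi-likelihood test, trimmed-mean scaling, Benjamini-Hochberg adjustment over all genes) tested 86 of the 89 genes in each label against neurons. The deposited labels were themselves predicted from expression, so these contrasts describe labelled nuclei. In oligodendrocytes 76 of 86 were called higher and 8 lower, against 44% and 45.1% of all 14579 genes. Astrocytes had 72 higher and 4 lower (35% and 40.1% of all genes), and microglia 69 and 8 (39.5% and 43.7%). Vascular cells had 64 and 8 (25.9% and 38.4%), and cluster 13 had 53 and 10 (31.9% and 42.7%). In the fit, 2 of the tested members, Ndufa4l2 and Cox4i2, passed the filter on low counts through vascular libraries alone. Both stay among the 86 behind the vascular count and median, which are therefore no evidence on these 2 genes. Further tested members, among them Atp5e, Uqcr11, Ndufs8, Cox6b2 and Cox6a2, had no neuron library at the filter's cutoff. They passed through libraries outside neurons, so that being tested at all depended on their level there. Perivascular macrophages, with 657 nuclei, had 17 and 11 (16.8% and 43.6%), and Glia 6 and 2 (11.2% and 20.9%). The median log2 difference of the members was 0.90 in oligodendrocytes, 0.67 in astrocytes, 0.81 in microglia, 0.86 in vascular cells, 0.37 in cluster 13, 0.28 in perivascular macrophages and 0.17 in Glia, while that of all genes lay between −0.59 and −0.01.

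The scaling sets where 0 lies in these contrasts. With library totals alone the median of all genes moved to 0.26 in astrocytes, 0.44 in microglia, 0.10 in oligodendrocytes, 0.49 in vascular cells and 0.41 in perivascular macrophages; with relative log expression it lay between −0.24 and 0.07 in these labels. A scaling moves the members and all genes alike, so it changes the calls and not the gap between their medians. In perivascular macrophages the split of higher against lower calls went from 17 and 11 to 45 and 6 with relative log expression and to 67 and 1 with totals alone. In Glia it went from 6 and 2 to 14 and 0 and to 35 and 0. Across all genes the share of calls that were higher went from 46.6% to 63.8% in astrocytes, from 47.5% to 64.6% in microglia, from 40.3% to 72.3% in vascular cells, from 42.7% to 54.3% in cluster 13, from 27.8% to 66.9% in perivascular macrophages and from 34.9% to 72.0% in Glia with totals alone. The genes named below as higher were called so under all 3 scalings, except Atp5a1 in oligodendrocytes, and the genes named as lower are given with the scalings that ended the call.

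Across oligodendrocytes, astrocytes, microglia, vascular cells and cluster 13 together, 50 of the 86 tested members were called higher in all 5, against 8.35% of all 14579 genes, and all 50 also held under the 3 scalings, against 8.07% of all genes. They were 2 core and 24 accessory subunits of complex I, 5 genes of complex III, 7 of complex IV and 12 of the ATP synthase, and no assembly factor. Among the 50, Atp5e, Atp5k, Ndufa1, Ndufa2, Ndufa3, Ndufc1, Ndufs6, Ndufs8 and Uqcr11 had no neuron library at the filter's cutoff. Their place in the count therefore depended on their level outside neurons.

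**Figure D1:**
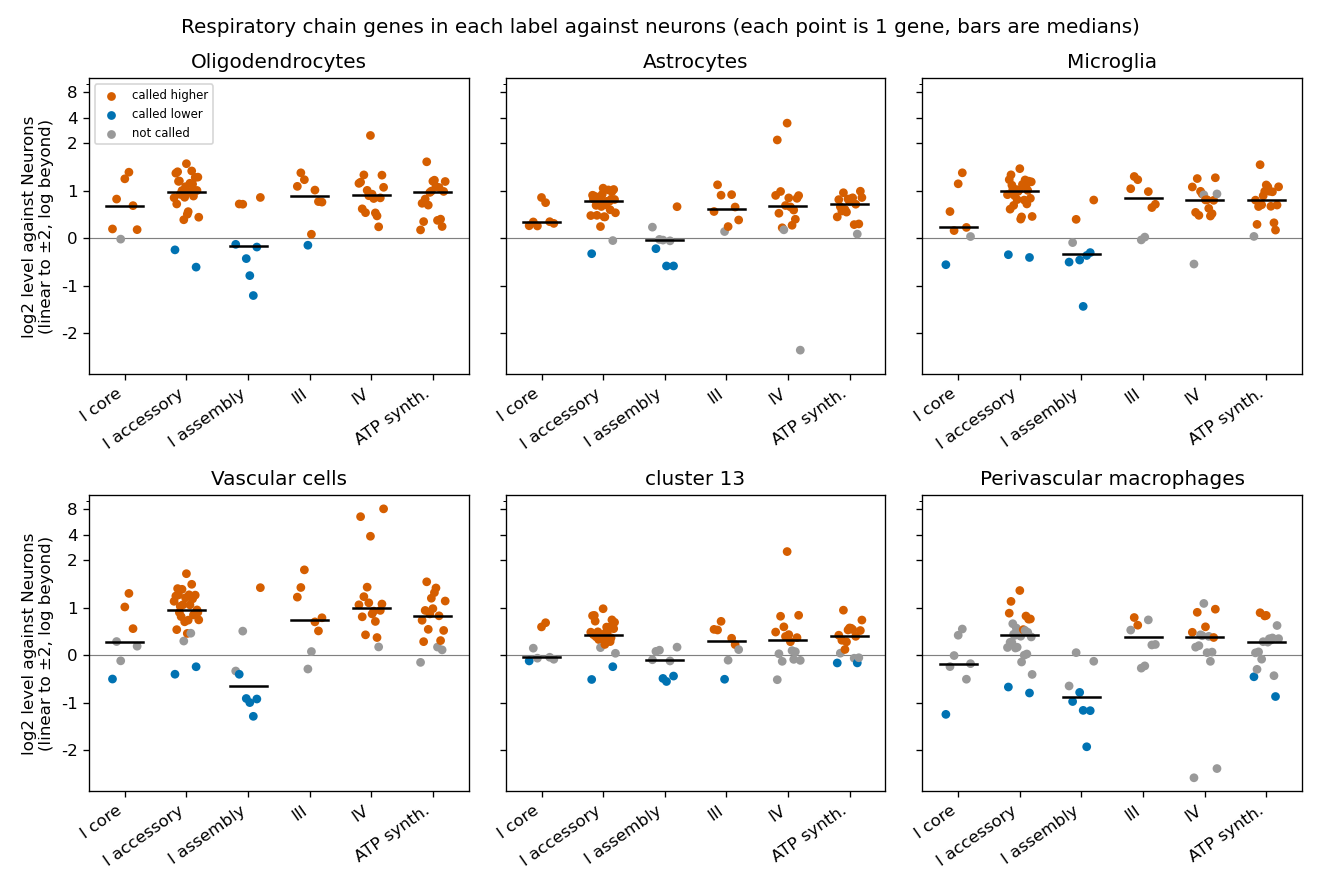
Log2 level of each tested gene in 6 labels against neurons (vertical axis, linear to ±2 and log beyond), grouped by role on the horizontal axis; orange, called higher; blue, called lower; grey, not called; black bars, medians. Most subunits lie above 0, while the complex I assembly factors have a median below 0 in all 6 panels with this scaling; with totals alone it is below 0 in oligodendrocytes only.

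Of the 7 core subunits of complex I, 6 were called higher in oligodendrocytes (5 to 7 over the 3 scalings) and 7 in astrocytes under each scaling. Called higher were 5 in microglia (3 to 6), 3 in vascular cells (3 to 6) and 2 in cluster 13 (2 to 3). The shares of all genes called higher were 44%, 35%, 39.5%, 25.9% and 31.9% in the same order of labels. With totals alone, 54.2% to 72.3% of all calls in these labels were higher. The shares of all genes also stand beside the counts for the other roles below. Ndufs7 and Ndufs8, which bind the iron-sulphur clusters that hand electrons on to ubiquinone, were higher in oligodendrocytes by 1.26 (SE 0.04, adjusted p = 4.13e-68) and 1.39 (SE 0.05, adjusted p = 5.63e-59) log2 units. Ndufs1, the largest core subunit, was higher by 0.20 in oligodendrocytes (SE 0.04, adjusted p = 1.72e-07) and 0.27 in astrocytes, and in microglia it was called lower (−0.55, adjusted p = 4.22e-15), a call that totals alone ended (−0.04, adjusted p = 0.578). Ndufv1, which binds NADH's electron acceptor FMN, was higher by 0.69 in oligodendrocytes (adjusted p = 4.59e-30).

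Among the 29 accessory subunits of complex I, 27 were called higher in oligodendrocytes, astrocytes and microglia alike, and 25 in vascular cells and cluster 13. Ndufb11, a small subunit of the membrane arm, had a lowest level of 7.57, a median of 15.9 and a highest of 29.4 CPM in neurons and 26.7, 50.2 and 95 CPM in oligodendrocytes. The 2 ranges overlapped slightly, and each of the 17 mice was higher in oligodendrocytes, by 1.57 log2 units (SE 0.04, adjusted p = 9.98e-76). In microglia Ndufb11 was higher by 1.47, in astrocytes by 1.06 and in cluster 13 by 0.98. Ndufb11 overlaps Rbm10 on the other strand, and the sources used here do not say whether counting used strand, so reads of the pair cannot be told apart. The same limit reaches further: of the 88 members in GENCODE M21, 25 overlap a protein-coding gene on the other strand. On the same strand 5 do, and 27 do on either strand. Ndufb7 and Ndufa13, 2 further accessory subunits, were higher in oligodendrocytes by 1.42 and 1.40, and Ndufs5 was higher in astrocytes by 1.03 (SE 0.07, adjusted p = 7.41e-29). Ndufa11 was higher in cluster 13 by 0.84 (adjusted p = 1.34e-23).

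Ndufs4 and Ndufa10 were called lower in oligodendrocytes. Ndufs4 is an accessory subunit of the NADH-oxidising end of complex I, whose loss in mice is used as a model of Leigh syndrome. Its lowest, median and highest levels were 104, 114 and 121 CPM in neurons and 73.9, 79.3 and 94.2 CPM in oligodendrocytes, with no overlap and no mouse higher in oligodendrocytes (0 of 17). The difference was −0.60 log2 units (SE 0.03, adjusted p = 1.72e-40), and −0.72 and −0.49 under the other scalings. Other labels differed from this. Ndufs4 had 114, 137 and 169 CPM in astrocytes, higher than neurons in 16 of 17 mice, and 94.4, 149 and 264 CPM in vascular cells, also higher in 16 of 17. The calls there turned on the scaling: the astrocyte difference was −0.05 (adjusted p = 0.370) with trimmed-mean scaling and 0.27 (adjusted p = 7.16e-08) with totals alone, and the vascular one was called lower (−0.24, adjusted p = 0.0128) and with totals alone higher (0.47, adjusted p = 3.61e-06). In microglia Ndufs4 was likewise called lower (−0.40), but with totals alone higher (0.11, adjusted p = 0.0219). In perivascular macrophages its lower call (−0.79) held with relative log expression (−0.43) and ended with totals alone (0.22), and that in cluster 13 (−0.24) ended with totals alone (−0.07). Ndufa10 was lower in oligodendrocytes (−0.24 log2 units) and in cluster 13 (−0.51), under all 3 scalings; its lower calls in astrocytes (−0.32) and vascular cells (−0.40) ended with totals alone (−0.01 and 0.30), and that in microglia (−0.34) then turned to a higher call (0.17, adjusted p = 0.0252).

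The 8 assembly factors of complex I, which help to build the complex and are not part of it, were called in both directions. Their median was −0.15 log2 units in oligodendrocytes (3 called higher, 5 lower), −0.04 in astrocytes (1 and 3), −0.33 in microglia (2 and 5) and −0.65 in vascular cells (1 and 5), beside medians of all genes of −0.01, −0.05, −0.07 and −0.21. The shares of all genes called higher and lower were 44% and 45.1% in oligodendrocytes, 35% and 40.1% in astrocytes, 39.5% and 43.7% in microglia and 25.9% and 38.4% in vascular cells, and a difference from these or from the subunits was not tested. The core subunits of complex I also had medians below 0 in cluster 13 (−0.04) and perivascular macrophages (−0.17). With totals alone the median of the assembly factors stayed below 0 in oligodendrocytes (−0.04) and was above 0 in astrocytes (0.27), microglia (0.18) and vascular cells (0.05), where the median of all genes had moved to 0.26, 0.44 and 0.49. With all 3 scalings the lower calls that held were Ndufaf4, Ndufaf5 and Ndufaf6 in oligodendrocytes, Ndufaf5 and Ndufaf7 in astrocytes, Ndufaf5 in microglia, Ndufaf6 in vascular cells and perivascular macrophages, and Ndufaf4, Ndufaf5 and Ndufaf7 in cluster 13. Ndufaf6 had a lowest level of 22.5, a median of 24.7 and a highest of 28.2 CPM in neurons and 9.71, 11.5 and 14.7 CPM in oligodendrocytes. The levels did not overlap, and the difference was −1.20 log2 units (SE 0.05, adjusted p = 1.17e-51). Ndufaf5, an enzyme that hydroxylates an arginine of Ndufs7, had 26.4, 29.2 and 33.7 CPM in neurons, 15.5, 17.9 and 22.4 CPM in oligodendrocytes and 6.92, 16.8 and 26.2 CPM in microglia. It was lower than in neurons in 17 of 17 mice in both labels, with differences of −0.78 (adjusted p = 5.62e-37) and −1.43 log2 units (adjusted p = 1.78e-26). Assembly factors outside the rule were mixed as well: of 32 tested, 16 were higher and 14 lower in oligodendrocytes, 15 and 6 in astrocytes, and 13 and 15 in microglia (18 and 6 there with totals alone).

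In complex III, 7 of 8 genes were called higher in oligodendrocytes and astrocytes and 6 in microglia and vascular cells. Uqcrfs1, the Rieske iron-sulphur protein, was higher by 1.02 log2 units in oligodendrocytes (adjusted p = 8.10e-40). The small subunits gave the largest differences: Uqcrb was higher in vascular cells by 1.80 (SE 0.17, adjusted p = 9.37e-20) and Uqcr11 in astrocytes by 1.13 (SE 0.10, adjusted p = 1.00e-19), each in 17 of 17 mice. Uqcrc1, a large core protein of the complex, was lower in oligodendrocytes (−0.14, adjusted p = 4.57e-04; −0.03 and adjusted p = 0.499 with totals alone) and in cluster 13 (−0.50, adjusted p = 9.75e-11, lower under all 3 scalings).

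In complex IV, all 16 tested genes were called higher in oligodendrocytes, 15 in vascular cells, 14 in astrocytes and 13 in microglia. The 16 include Ndufa4l2 and Cox4i2, which were tested only through vascular libraries, so the vascular count is no evidence on these 2. In oligodendrocytes both lay near the floor, at 0 to 0.782 CPM for Ndufa4l2 and 0.166 to 1.68 CPM for Cox4i2. The oligodendrocyte count thus rests on few UMIs for these 2 genes. For Cox6b2, 7 of the 12 libraries that reached the filter's cutoff were vascular too. Ndufa4, named for complex I and now placed in complex IV, was higher in microglia by 1.28 log2 units (SE 0.05, adjusted p = 1.87e-53). Cox5a was higher by 0.62 in oligodendrocytes, 0.53 in astrocytes and 0.55 in microglia, and was not called in cluster 13 (0.03, adjusted p = 0.609; 0.20 and adjusted p = 3.10e-03 with totals alone). In the ATP synthase, all 17 genes were called higher in oligodendrocytes, 16 in astrocytes and microglia and 14 in vascular cells. Atp5e, the epsilon subunit of the catalytic head, had a lowest level of 4.92, a median of 7.53 and a highest of 12.1 CPM in neurons, and 15.5, 27.5 and 46.3 CPM in oligodendrocytes. The levels did not overlap, and the differences were 1.61 log2 units in oligodendrocytes (SE 0.05, adjusted p = 1.52e-67) and 1.55 in microglia and in vascular cells. Atp5a1, the alpha subunit, was higher by 0.45 in astrocytes under all 3 scalings and by 0.18 in oligodendrocytes, a call that relative log expression ended (0.06, adjusted p = 0.0669). In microglia it was at 0.04 (adjusted p = 0.467), or at 0.56 with totals alone (adjusted p = 5.77e-18), and its lower call in cluster 13 (−0.16) ended with both other scalings. Atp5b, the catalytic beta subunit, was higher by 0.74 in oligodendrocytes, 0.82 in astrocytes and 0.81 in microglia. Atp5mpl, a small subunit of the membrane part, was higher in astrocytes by 0.99 (adjusted p = 3.86e-17), and Atp5j, a stalk subunit that overlaps Gabpa on the other strand, in vascular cells by 1.42 (adjusted p = 2.98e-20). Cox5b, a subunit of complex IV, was higher in perivascular macrophages by 0.91 (adjusted p = 6.59e-06), and was not called there in saline mice alone (0.53) or in nuclei of 1000 or more UMIs (0.67).

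Genes of the pathway that the rule leaves out behaved in part alike. All 4 genes of complex II were called higher in astrocytes under each scaling and in oligodendrocytes (2 with relative log expression), 3 were in microglia, and 0 were in vascular cells (4 with totals alone). Both tested cytochrome c and c1 genes were higher in oligodendrocytes, astrocytes, microglia, vascular cells and cluster 13 under all 3 scalings. Of the 8 tested genes encoded in mitochondria, 7 were higher in oligodendrocytes (5, and 1 lower, with relative log expression), 5 in microglia, 2 in astrocytes and 8 in vascular cells, where their median was 1.92 log2 units; such RNA is made outside the nucleus, and the part of RNA from outside nuclei in the other values was not tested. Of the 12 regulators of mitochondrial biogenesis, 6 were higher and 5 lower in oligodendrocytes, and 5 and 5 in astrocytes (6 and 1 there with totals alone). With trimmed-mean scaling, 44% of all genes were called higher and 45.1% lower in oligodendrocytes, and 35% and 40.1% in astrocytes. The shares were 39.5% and 43.7% in microglia, 25.9% and 38.4% in vascular cells and 31.9% and 42.7% in cluster 13. The counts of the regulators with that scaling were near these shares. Of 91 ribosomal protein genes, 85 were higher and 5 lower in oligodendrocytes (median 1.23 log2 units), 77 and 7 in astrocytes (0.73) and 86 and 3 in microglia (1.21).

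The promoters of the members hold, more often than promoters at large, letters known from the nuclear respiratory factor NRF1, from ETS-family factors (among them GABP) and from YY1. RefSeq's promoter table (GRCm38.p6, 250 bases before to 50 after each start) had 72 of the 89 genes. On either strand, the NRF1 motif (GCGCA, any base, then GCGC) was in 17 of them (23.6%), against 5.19% of all 27025 genes and 7.44% of protein-coding genes. The ETS motif CCGGAAG was in 17 (23.6%, against 9.93% and 13.4%), and the YY1 motif AAGATGGC in 10 (13.9%, against 3.19% and 3.64%). In all 38 of the 72 held at least 1 of the motifs, 3 held NRF1 and ETS, 2 held ETS and YY1 and 1 held NRF1 and YY1, and in no member did matches of different motifs overlap. The windows below, each 60 bases and read on the strand of its gene, are shown because they stand before named genes that were higher outside neurons (Atp5e, Uqcr11 and Ndufs5) or, for Ndufaf4, lower in oligodendrocytes; capitals mark the motif.
Atp5e (chr2:174464171-174464230, minus strand, ETS motif read on the other strand): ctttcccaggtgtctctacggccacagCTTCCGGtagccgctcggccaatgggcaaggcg
Uqcr11 (chr10:80406855-80406914, minus strand, ETS motif): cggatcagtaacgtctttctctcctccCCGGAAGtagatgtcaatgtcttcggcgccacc
Ndufs5 (chr4:123718250-123718309, minus strand, NRF1 motif): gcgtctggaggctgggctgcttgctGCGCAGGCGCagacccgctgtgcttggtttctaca
Ndufaf4 (chr4:24897945-24898004, plus strand, NRF1 motif on both strands): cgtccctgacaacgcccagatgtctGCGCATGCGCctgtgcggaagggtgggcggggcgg
Each window lies upstream of the gene as GENCODE M21 annotates it. A gene called higher (Ndufs5) and a gene called lower (Ndufaf4) in oligodendrocytes thus share the same 10-letter pattern, and a match is a description of letters, not a bound site.

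Paralogues of complex IV subunits set apart some labels. Ndufa4l2, a paralogue of Ndufa4 known from pericytes (chr10:127514967-127517154 in GRCm38, plus strand, overlapping Shmt2 on the other strand), stood out in vascular nuclei. It had 87 UMIs in 1222 vascular nuclei, with a lowest level of 0, a median of 39.7 and a highest of 158.5 CPM over the mice. Neurons had 0.0172, 0.122 and 0.265 CPM, and astrocytes and perivascular macrophages had 0 UMIs. The vascular level was above that of neurons in 16 of 17 mice. No library outside vascular cells reached the cutoff of the filter on low counts, so Ndufa4l2 was tested only because it was high there, and no test is given.

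Cox4i2, the paralogue of Cox4i1 known from lung and oxygen-sensing cells (chr2:152754173-152765037, plus strand), followed the same label. Vascular nuclei had 58 UMIs, with a lowest level of 0, a median of 25.7 and a highest of 84.5 CPM, against 0.0629, 0.236 and 0.391 CPM in neurons. It was higher in 15 of 17 mice, and, as it too passed the filter through vascular libraries alone, no test is given. The common form Cox4i1 was present throughout, at 310 ± 108 CPM in vascular cells (mean ± SD, n = 17), 223 ± 70.6 in oligodendrocytes and 90.5 ± 23.5 in neurons.

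Splitting the vascular nuclei by whichever of 3 marker lists had the highest sum in each placed both paralogues mainly with mural markers (Vtn, Rgs5, Pdgfrb). Pooled over mice, Ndufa4l2 stood at 153 CPM in 383 nuclei led by mural markers (exact Poisson 95% interval 118 to 195, counting error only), 71.2 CPM in 186 led by endothelial markers (43.5 to 110) and 1.55 CPM in 457 led by fibroblast-like markers (0.0392 to 8.63). Cox4i2 stood at 115 (85.4 to 153), 21.3 (7.83 to 46.5) and 1.55 CPM (0.0392 to 8.63). In the remaining 196 nuclei, with no single leading list, Ndufa4l2 stood at 3.75 CPM and Cox4i2 at 7.5 CPM, on 1 and 2 UMIs. Cox4i1 was at 320, 455, 232 and 289 CPM in the 4 subsets. Over mice with at least 5 such nuclei the spread was wide: Ndufa4l2 averaged 167 ± 156 CPM (SD, n = 17) in mural-led, 63.3 ± 87.8 (n = 16) in endothelial-led and 0.89 ± 3.67 (n = 17) in fibroblast-like-led nuclei, and Cox4i2 128 ± 106, 17.8 ± 33.6 and 0.797 ± 3.28 CPM. In vascular nuclei the erythroid markers also summed to 375 CPM and astrocyte markers to 979 CPM, and their part in these levels was not tested; Ndufa4l2 had 0 UMIs in astrocytes.

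Cox6b2, the paralogue of Cox6b1 known from testis (chr7:4751792-4753094, minus strand), was low in neurons and higher in several other labels. Its lowest, median and highest levels were 0.276, 0.545 and 0.969 CPM in neurons, 1.85, 3.64 and 5.69 CPM in oligodendrocytes and 0.992, 3.68 and 7.92 CPM in cluster 13. Neurons lay below both without overlap, and the differences were 2.48 (SE 0.13, adjusted p = 3.43e-40) and 2.54 log2 units (SE 0.26, adjusted p = 9.13e-17). Astrocytes had 0 to 18.9 CPM with a median of 7.39, higher than neurons in 15 of 17 mice (3.46 log2 units, adjusted p = 3.03e-26). Vascular cells averaged 13.9 ± 17 CPM (SD, n = 17) on 23 UMIs in all, which came from 8 of the 17 mice; 7 of the 12 libraries that reached the filter's cutoff were vascular, and no test is given for that label. Cox6b1 differed less, by 0.90 in oligodendrocytes and 0.69 in astrocytes. Cox6a2, the muscle form of Cox6a1, was higher in oligodendrocytes than in neurons (1.01 log2 units, adjusted p = 8.00e-16) at 3.22 ± 1.29 against 1.43 ± 0.33 CPM.

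Cox7b2, the paralogue of Cox7b (chr5:71442824-71548205, minus strand), was counted mainly in neurons and astrocytes and did not pass the filter on low counts in the fit across labels, so no test is given. Its lowest, median and highest levels were 5.36, 7.37 and 8.31 CPM in neurons, 2.63, 12.4 and 30.8 CPM in astrocytes and 0.195, 0.646 and 1.25 CPM in oligodendrocytes. Vascular cells and perivascular macrophages had 0 UMIs. Among the neurons, cluster 12 (8043 nuclei, high in Adarb2, Kcnc2 and Slc17a6) held 32.8 ± 8.32 CPM over the 17 mice, from 16.6 to 45.2, while the other neuron clusters averaged 3.35 to 6.5 CPM. Only in cluster 16 did a mouse (39.9 CPM) reach the range of cluster 12, on 5 UMIs in 3153 nuclei.

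**Figure D2:**
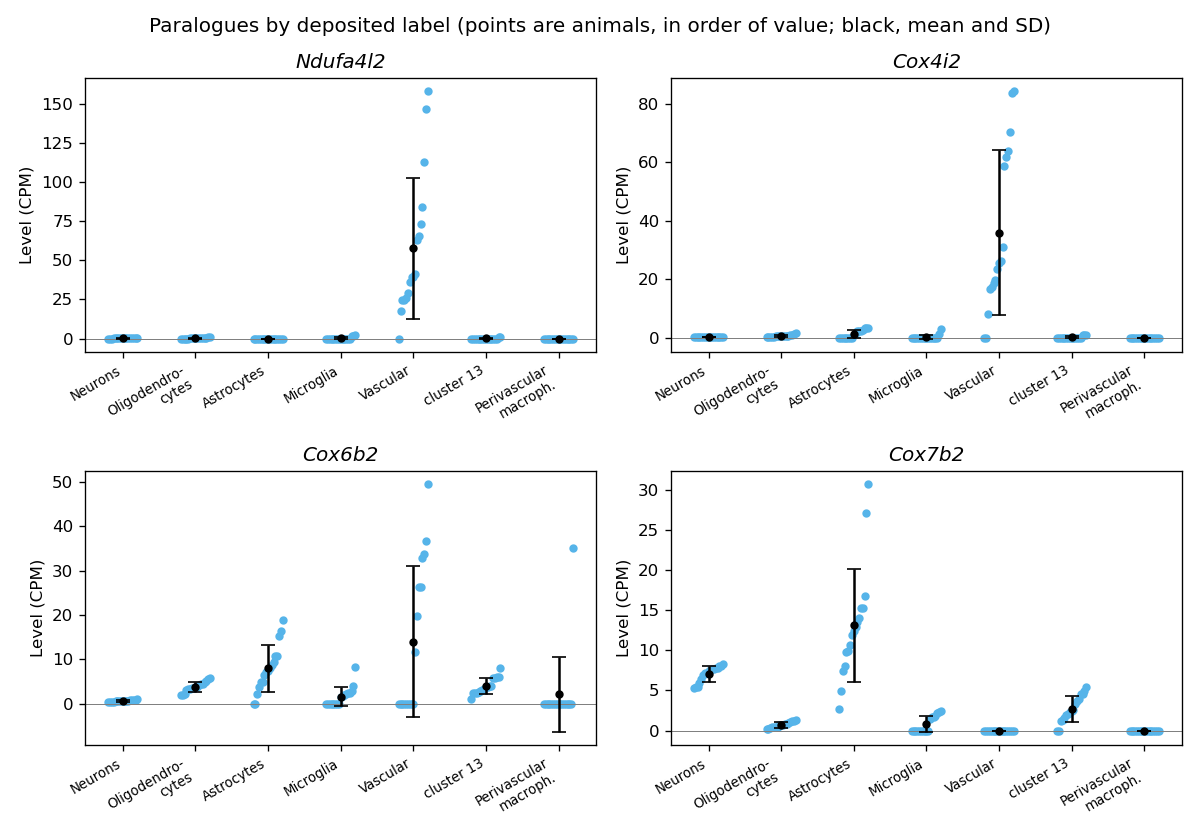
Level in CPM (vertical axes) of 4 paralogues in 7 groups of nuclei; blue points are the 17 mice in order of value, black marks the mean with its SD. Ndufa4l2 and Cox4i2 stand out in vascular cells, Cox6b2 is lower in neurons than in oligodendrocytes, astrocytes and cluster 13, and Cox7b2 is seen in neurons and astrocytes and at 0 in vascular cells and perivascular macrophages.

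The heart and muscle forms Cox7a1 and Cox8b were close to absent. Cox7a1 averaged at most 1.24 CPM in any label, and Cox8b had 59 UMIs in all nuclei together. Their partners Cox7a2 and Cox8a were at 32.1 ± 5.25 and 55 ± 11.6 CPM in neurons and at 63.2 ± 15.2 and 109 ± 29.9 CPM in oligodendrocytes. Cox7a2l, which helps to join complexes III and IV, was at 23.3 ± 3.78 and 37.2 ± 9.35 CPM. The 3 genes for the same c-subunit of the ATP synthase rotor, Atp5g1, Atp5g2 and Atp5g3, were higher in oligodendrocytes by 0.97, 1.00 and 1.20 log2 units, so that no member of this trio went against the others.

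Gene length went with the size of the difference from neurons. The members are short, with a median annotated span of 7.28 kb against 17.4 kb for all protein-coding genes (GENCODE M21). Over the 84 members with a span, longer genes had smaller log2 differences from neurons: Spearman's rho was −0.55 in oligodendrocytes and vascular cells, −0.52 in microglia, −0.45 in cluster 13, −0.44 in perivascular macrophages and −0.36 in astrocytes. The same sign held over 12800 coding genes, at −0.28 in oligodendrocytes, −0.25 in vascular cells, −0.32 in microglia, −0.17 in cluster 13, −0.25 in perivascular macrophages and −0.22 in astrocytes; genes share libraries and are not replicates, so these are descriptions. In oligodendrocytes the 73 members under 20 kb had a median of 0.97 log2 units and the 11 longer ones 0.18, against 0.28 and −0.17 for coding genes split the same way. Ndufs4 (100.5 kb), Ndufaf5 (33.0 kb), Ndufa10 (34.9 kb) and Ndufaf6 (25.2 kb), all lower in oligodendrocytes, were among the long ones, but Ndufaf4 (6.92 kb), also lower there, was short, and Ndufaf2 (155.9 kb), longer than these 5, was higher there (0.72, adjusted p = 3.07e-42). The part of length in the difference between labels was not tested.

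**Figure D3:**
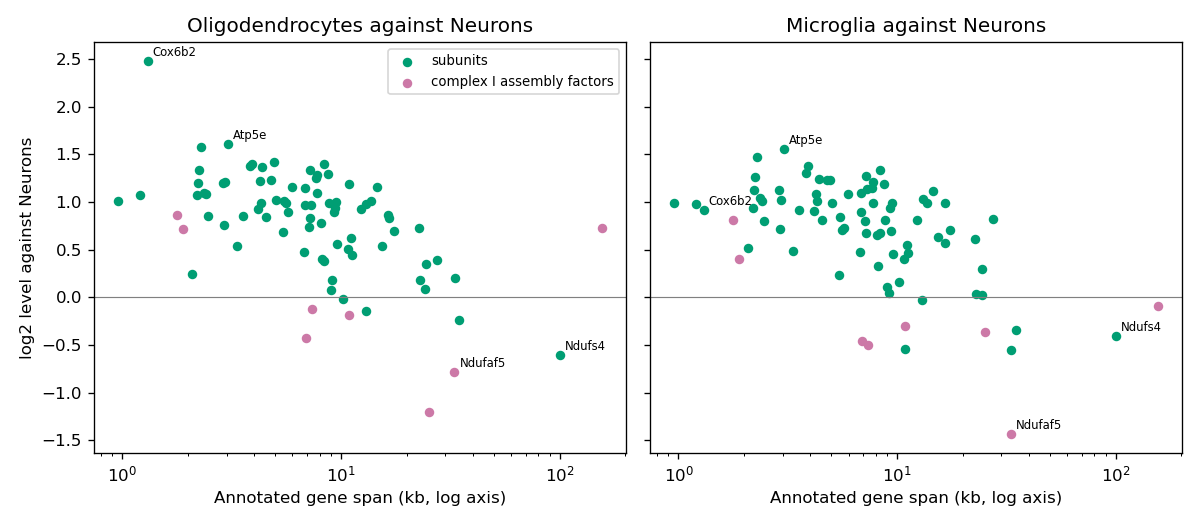
Log2 level against neurons (vertical axis) of the members in oligodendrocytes (left) and microglia (right) by annotated gene span in kb (horizontal log axis); green, subunits; pink, complex I assembly factors. Points slope downward to the right, with rho −0.55 on the left and −0.52 on the right.

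The libraries carried a deposited batch number, and the sources used here do not say what a batch was. Batch 1 held saline, Malat1 ASO and anti-TfR:Malat1 mice (3 libraries), batch 2 held 1 mouse of each group (4), and batches 3 and 4 held 1 of each group and a second anti-TfR:Malat1 mouse (5 each). Fitted with group and batch over all nuclei, 44 of 88 tested members differed between batches (50%), against 21.7% of all 21375 genes (edgeR quasi-likelihood F test of the batch terms). By role they were 5 of 7 core and 12 of 29 accessory subunits of complex I, 3 of 8 assembly factors, 4 of 8 genes of complex III, 8 of 18 of complex IV, 11 of 17 of the ATP synthase, and Ndufb1-ps. Batch 3 had the highest mean for 43 of the 44, and batch 4 the lowest for 39.

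Ndufs3, a core subunit of complex I (chr2:90894634-90904827 in GRCm38, minus strand, overlapping Kbtbd4 on the other strand), had the lowest p. In batch 1 its levels were 36.1, 39.4 and 33.2 CPM, and in batch 2 they were 45.1, 43.7, 42.9 and 46.5 CPM. Batch 3 had 52.6, 48.1, 51.9, 52.0 and 64.3 CPM, and batch 4 had 34.4, 39.4, 32.9, 37.7 and 38 CPM. Batches 2 and 3 overlapped neither each other nor batches 1 and 4, while the last 2 overlapped fully (adjusted p = 8.30e-05, and 2.66e-04 without OTV:Malat1 replicate 2, the highest mouse).

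Uqcrc1 followed the same order, with batch means of 30.0, 35.1, 40.5 and 30.2 CPM in batches 1 to 4 (adjusted p = 7.93e-04). Ndufaf3, an assembly factor of complex I, had 6.42, 8.19, 11 and 5.97 CPM (adjusted p = 1.33e-03). Ndufs1 had 74.5, 84.4, 91.7 and 78.3 CPM (adjusted p = 2.03e-03), and Ndufb9 had 32.4, 32.9, 42.4 and 27.1 CPM (adjusted p = 2.37e-03). All 4 stayed called without OTV:Malat1 replicate 2. Of the other subunits named throughout, Cox5a (adjusted p = 3.45e-03), Uqcrfs1 (9.29e-03), Ndufv1 (0.0133) and Atp5a1 (0.0144) were called, and Cox6c (0.0516) and Atp5b (0.0898) were not (all edgeR).

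**Figure D4:**
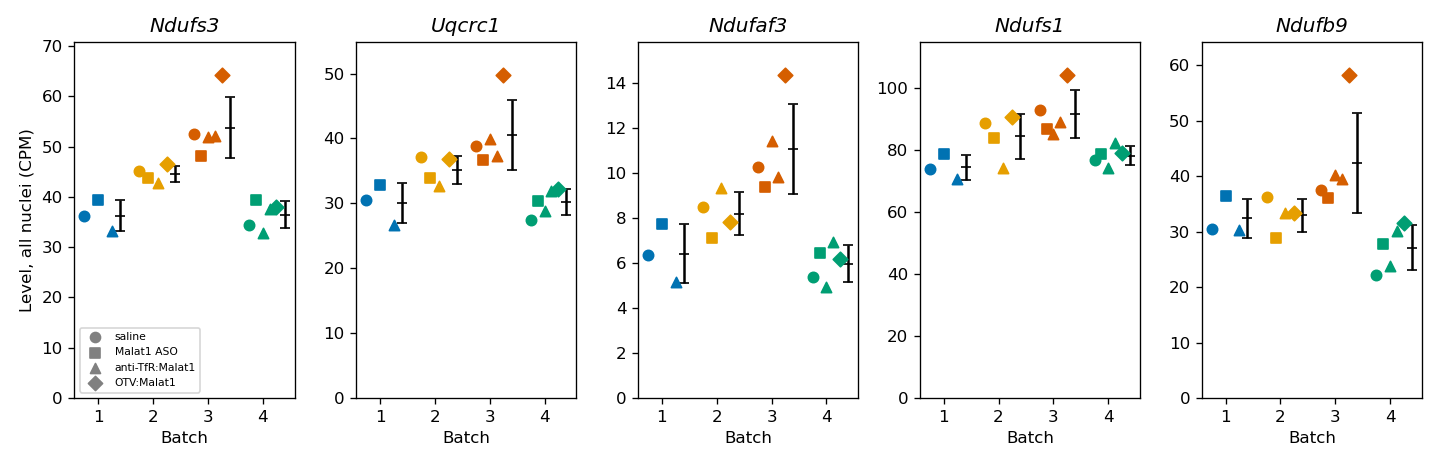
Level over all nuclei in CPM (vertical axes, from 0) by deposited batch (horizontal axes) of the 5 members with the lowest p for batch; each point is a mouse, its shape the group, and bars give the batch mean and SD. Batch 3 is highest for all 5 genes, and its top point is OTV:Malat1 replicate 2.

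In the other gene lists, against the same 21.7% of all genes, 30 of 94 ribosomal protein genes (31.9%), 9 of 32 assembly factors outside the rule (28.1%), 3 of 12 regulators of mitochondrial biogenesis (25%), 1 of 11 genes encoded in mitochondria (9.09%), 2 of 4 complex II genes and both cytochrome c and c1 genes were called. The summed member level was 2510 ± 198 CPM in batch 1 (SD, n = 3), 2711 ± 249 in batch 2 (n = 4), 3127 ± 569 in batch 3 (n = 5) and 2322 ± 233 in batch 4 (n = 5). UMIs per nucleus averaged 4240, 4023, 3697 and 3720 in the same order. The part of depth was not tested.

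No treatment comparison called a member. Over all nuclei the summed member level in saline mice was 2451, 3003, 2832 and 2140 CPM, and under Malat1 ASO 2731, 2396, 2710 and 2392 CPM. Under anti-TfR:Malat1 it was 2349, 2746, 3223, 2786, 2027 and 2595 CPM, and under OTV:Malat1 2700, 4081 and 2457 CPM. The groups overlapped, and OTV:Malat1 replicate 2 stood above every other mouse. It was also the highest mouse within each label, at 3523 CPM in neurons (next 2966), 7231 in oligodendrocytes (5760), 6662 in astrocytes (6126), 8456 in microglia (7596) and 9656 in vascular cells (8440). In sums over all nuclei, the mix of cell types and the level within a type cannot be told apart. OTV:Malat1 replicate 2 also had the highest ribosomal protein level, 4639 CPM against 3697 in the next, and a mean UMI count per nucleus of 3462; their part in its member level was not tested. The group means were 2606 ± 387 (saline), 2557 ± 189 (Malat1 ASO), 2621 ± 408 (anti-TfR:Malat1) and 3079 ± 876 CPM (OTV:Malat1), the last 1.18 times saline with replicate 2 and 0.989 times without it. As a log2 ratio to the ribosomal sum, the groups lay at −0.22 ± 0.05, −0.18 ± 0.04, −0.19 ± 0.07 and −0.16 ± 0.02.

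**Figure D5:**
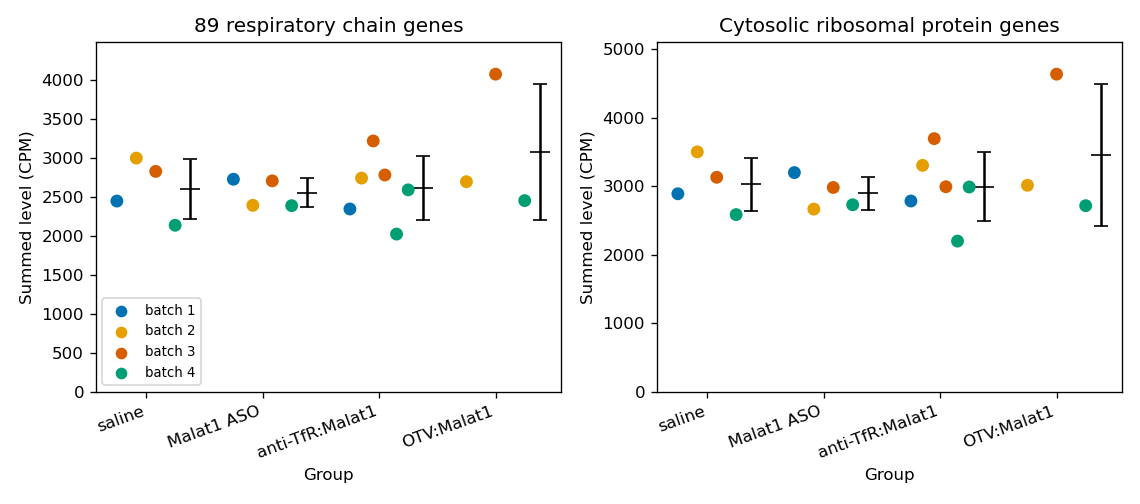
Summed level in CPM (vertical axes, from 0) of the 89 genes (left) and of cytosolic ribosomal protein genes (right) over all nuclei, by group; points are mice coloured by deposited batch, and black bars give the group mean and SD. The OTV:Malat1 mouse of batch 3 is the highest point in both panels.

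By gene, each of the 4 comparisons over all nuclei called 0 of 88 members and 0% of 21375 genes at an adjusted p under 0.05 (edgeR, 1 fit of all 17 mice), and DESeq2 also called 0 members. At an unadjusted p under 0.05, edgeR had 0 members and 129 genes for Malat1 ASO against saline, 1 and 258 for anti-TfR:Malat1 against saline, 0 and 237 for OTV:Malat1 against saline, and 0 and 345 for OTV:Malat1 against anti-TfR:Malat1. The first 3 comparisons share the saline mice and the last shares groups with them, so they are given side by side only. The median member log2 difference was −0.03 for Malat1 ASO (28 of 88 above 0), 0.05 for anti-TfR:Malat1 (69 of 88) and 0.17 for OTV:Malat1 against saline (84 of 88), and 0.13 for OTV:Malat1 against anti-TfR:Malat1 (82 of 88), with medians of all genes within 0.01 of 0.

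In each comparison the median turned on single libraries. Without OTV:Malat1 replicate 2 the OTV:Malat1 medians were −0.04 against saline (24 of 88 above 0) and −0.08 against anti-TfR:Malat1 (9 of 88), and without OTV:Malat1 replicate 3 they were 0.32 (86 of 88) and 0.29 (84 of 88). For anti-TfR:Malat1 against saline the median was −0.03 without anti-TfR:Malat1 replicate 3 (27 of 88) or without saline replicate 4 (28 of 88), and 0.12 without saline replicate 2 (79 of 88) or without anti-TfR:Malat1 replicate 5 (78 of 88). For Malat1 ASO it ran from −0.10 without saline replicate 4 (9 of 88) to 0.05 without saline replicate 2 (75 of 88). Compared inside batches 2, 3 and 4, the summed level of OTV:Malat1 mice differed from saline by −0.15, 0.53 and 0.20 log2 units and from anti-TfR:Malat1 by −0.02, 0.44 and 0.09 log2 units. Batch 1 held no OTV:Malat1 mouse. For anti-TfR:Malat1 against saline the 4 batches gave −0.06, −0.13, 0.09 and 0.11, and for Malat1 ASO 0.16, −0.33, −0.06 and 0.16, with no common sign.

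The members of lowest p over all nuclei were these. Uqcrc2, a large core protein of complex III, had 39.5, 43.4, 44.1 and 42.5 CPM in saline mice and 47.5, 43.3, 44.9, 46.4, 44.6 and 49.2 CPM under anti-TfR:Malat1. The groups overlapped slightly, and the difference was 0.15 log2 units (SE 0.06, edgeR adjusted p = 1.00). Under OTV:Malat1 Uqcrc2 was at 44.5, 54.0 and 49.4 CPM, all above saline (0.15, SE 0.07, edgeR adjusted p = 1.00). Atp5b was at 44.9, 58.8, 52.8 and 40.6 CPM in saline and at 49.4, 85.9 and 50.8 CPM under OTV:Malat1, where only replicate 2 lay outside the saline range (0.25, SE 0.17, edgeR adjusted p = 1.00).

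For Malat1 ASO against saline the lowest p belonged to Ndufaf1, an assembly factor (−0.12 log2 units, SE 0.15), and to Ndufs4 (0.04, SE 0.05), whose level over the 17 mice spanned only 102 to 118 CPM. For OTV:Malat1 against anti-TfR:Malat1 it belonged to Cox6b2 (0.34, SE 0.22) and Cox4i2 (0.43, SE 0.31), both carried by few UMIs (1175 and 364 over all nuclei). Cox6b2 was second for anti-TfR:Malat1 against saline (−0.23, SE 0.20). These 5 had an edgeR adjusted p of 0.997 or above.

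In the labels too, no member was called in any of the 4 comparisons. The share of all genes called was 0 there except for OTV:Malat1 against saline in oligodendrocytes (0.0209%), astrocytes (0.0117%) and microglia (0.011%), and OTV:Malat1 against anti-TfR:Malat1 in oligodendrocytes (0.00696%) and astrocytes (0.0117%). For OTV:Malat1 against saline the median member difference was 0.14 log2 units in neurons (82 of 88 above 0), 0.22 in oligodendrocytes (78 of 84), 0.26 in astrocytes (67 of 77), 0.31 in microglia (70 of 80), 0.20 in cluster 13 (66 of 81) and 0.18 in vascular cells (31 of 44). At an unadjusted edgeR p under 0.05 there were 0 members and 254 of all 20851 genes in neurons, 1 and 373 of 14362 in oligodendrocytes, 6 and 326 of 8533 in astrocytes, 10 and 370 of 9104 in microglia, 6 and 399 of 10775 in cluster 13, and 2 and 169 of 3303 in vascular cells. Without OTV:Malat1 replicate 2 the medians were −0.03 in neurons, −0.01 in oligodendrocytes, 0.02 in astrocytes, 0.02 in microglia, −0.02 in cluster 13 and −0.18 in vascular cells, and the members at that p were 0, 0, 1, 1, 0 and 1 in this order. With batch as a block and all mice kept, the medians were 0.12, 0.14, 0.17, 0.21, 0.11 and 0.07. Perivascular macrophages had only 2 members above the filter on low counts, neither of them called, and Glia had too few mice for a fit.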

How the data were processed

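The deposited data were a sparse matrix of whole-number UMI counts per gene and nucleus and a table of nuclei, both made by the authors with Cell Ranger 6.0.1 and Seurat 4 on the build mm10, per the submitters' processing notes. The use of intronic reads and of strand, the assignment of reads shared with pseudogenes and the treatment of free RNA are not given in these sources. Each nucleus had at least 500 UMIs. Doublets called by the authors (47758 nuclei, 16.8%) were kept in the main results and left out in an alternative. Counts were summed per mouse over all nuclei and per deposited label (20 or more nuclei of the label in the mouse), with cluster 13 apart, and CPM are counts over the summed total.

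Tests used edgeR 4.0.16 in R 4.3.3 (default expression filter, trimmed-mean scaling, quasi-likelihood test, Benjamini-Hochberg over all genes tested, threshold 0.05). The terms were group for treatments, group and batch for batches, and mouse and label for labels. DESeq2 1.42.0 was an alternative. Sums over the members got no p. Other tools were Python 3.11.15, pandas 2.3.3, numpy 2.4.6, scipy 1.17.1 and matplotlib 3.10.9. Promoters came from RefSeq (GRCm38.p6), and positions and spans from GENCODE M21 (GRCm38, the mm10 build), which held 88 of the 89 genes. Intervals cover counting error only.

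The rule for the members used symbols alone, but the rule, the gene lists and the tests were chosen with earlier results of these data known. Genes were named by a rule: paralogue groups; in each treatment comparison the called members or, with none, the 2 of lowest p; for labels, up to 5 each way of the largest difference among genes called and on the same side in every mouse; for batch, the 5 of lowest p; and Ndufv1, Ndufs1, Uqcrfs1, Uqcrc1, Cox5a, Cox6c, Atp5b and Atp5a1 throughout; a further gene of the rule is not reported here. Ndufs7, Ndufs8, Ndufa10, Ndufaf2, Ndufaf4 and Ndufaf7 were named after their values were seen.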

Additional observations from a re-analysis of the deposited data

How the results depend on the processing

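No alternative (DESeq2, relative log expression, no filter on low counts, batch block, doublets left out, only the groups compared, nuclei of 1000 or more UMIs, Malat1 left out, each mouse left out) called a member in a treatment comparison. Replicate numbers did not pair the mice: over 21 same-numbered pairs the correlation of deviations from the group means ran from −0.45 to 0.67 (median 0.08, 10 pairs over 0.1), against a median of 0.39 over 27 pairs of the same batch. With the replicate number as a block, 0 members were called in each comparison, the median for OTV:Malat1 against saline was 0.15 (81 of 88 above 0), and that against anti-TfR:Malat1 turned from 0.13 to −0.008 (39 of 88), and to −0.04 in neurons (31 of 88). That setting kept only replicate numbers held by more than 1 group, so anti-TfR:Malat1 replicates 5 and 6 were left out. The part of the block and that of the missing mice cannot be told apart. The count of members that differed between batches (44) ran from 30 (without OTV:Malat1 replicate 3, with 14.9% of all genes called) to 56 (without anti-TfR:Malat1 replicate 6, 24.8%) with each mouse left out, and was 65 with DESeq2 (28.9%) and 57 without doublets (20.7%). With each OTV:Malat1 mouse left out, the difference of Cox4i2 from anti-TfR:Malat1 ran from −0.0173 (without replicate 2) to 0.69, and that of Atp5b from saline from −0.00156 (without replicate 2) to 0.37; neither was called in any setting.

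Against neurons, members called lower numbered 2 in astrocytes, 5 in cluster 13, 1 in microglia, 5 in oligodendrocytes and 1 in vascular cells with library totals alone, and 4 in vascular cells with relative log expression and with DESeq2. With the 4 saline mice only they numbered 5 in cluster 13, 5 in microglia and 4 in vascular cells, and 32 members were higher in cluster 13. In perivascular macrophages the members higher numbered 45 (relative log expression), 67 (totals alone), 50 (DESeq2), 5 (nuclei of 1000 or more UMIs) and 3 (saline only), and those lower 6, 1 and 6 in the first 3 and 4 with saline only; Cox8a turned to −0.13 there in nuclei of 1000 or more UMIs. Calls over all 14579 genes moved as well. With totals alone the lower ones went from 5849 to 4073 in astrocytes and from 6376 to 4432 in microglia. They went from 6229 to 5019 in cluster 13, 6580 to 5994 in oligodendrocytes and 5594 to 2654 in vascular cells. In perivascular macrophages the higher ones went from 2445 to 3240 (relative log expression) and 5461 (totals alone). Counts over all genes with DESeq2, saline mice only or nuclei of 1000 or more UMIs are not given here. The cause of these moves was not tested. The settings with saline mice only and with nuclei of 1000 or more UMIs also held fewer mice or nuclei. Labels restricted to the commonest of their cluster gave no value for vascular cells, perivascular macrophages or Glia.

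With Malat1 left out of the total, Malat1 ASO mice moved by more than their SD, to 4244 CPM in oligodendrocytes and 4568 CPM in astrocytes. That setting raises every mouse according to its Malat1 share, and passing the SD also depends on the spread of the group. The shares of OTV:Malat1 mice lay below those of saline mice over all nuclei and in both labels. Leaving Malat1 out therefore raises OTV:Malat1 less than saline and lowers the ratio of their summed levels. The median member difference over all nuclei was 0.18 with Malat1 left out and 0.17 with it. In nuclei of 1000 or more UMIs, Malat1 ASO mice moved past their SD to 4390 CPM in microglia and 3159 CPM in perivascular macrophages. Perivascular macrophages of saline mice stood at 4125 CPM there. With each mouse left out, the mean over all nuclei ran from 2474 to 2762 CPM in saline, 2499 to 2612 under Malat1 ASO, 2500 to 2740 under anti-TfR:Malat1 and 2578 to 3390 under OTV:Malat1. Rare labels held few UMIs: perivascular macrophages had 753454 and vascular cells 1617270 over all mice. Glia reached 20 nuclei in only 5 mice.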
